A study of Macaca mulatta with 24 samples.

Results

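CCL19, CCL21 and CXCL13 are the chemokines that draw lymphocytes and dendritic cells into organised lymphoid tissue, and CCR7, CXCR5 and ACKR4 are the receptors that bind them. They were followed in the ileum of rhesus macaques after total-body irradiation (TBI). CCL19 and CCL21 were chosen by their values at day 4 and day 7 against unirradiated ileum, and CCR7, ACKR4, CXCL13 and CXCR5 were added for their role beside these ligands. The array carried 12 probes for these 6 genes out of 43603, with 2 probes for each gene. Of the 12 probes, 10 are listed under the symbol of the gene itself and the 2 probes of ACKR4 under CCRL1, its older symbol. All 12 were among the 36108 probes tested, the filter being a signal well above background on each array of some group, and 11 of them met this on all 24 arrays.

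Each of the 24 arrays measured the ileum of 1 rhesus macaque (Macaca mulatta), and all animals were young adult males. Of these, 4 were sham-irradiated (0 Gy), and the others were exposed once to gamma rays over the whole body, at 6.7 Gy or 7.4 Gy. After 6.7-Gy TBI, 4 animals were killed at day 4, 4 at day 7 and 2 at day 12, and the same numbers after 7.4-Gy TBI. The unirradiated animals are labelled day 4 and served for both doses and for every day, so all comparisons with them share these 4 arrays. The label protocol of the day 12 samples names 21 days, whereas their titles and day fields give 12, which was used. RNA was extracted from the whole wall of a segment of about 3 cm. Each value is therefore a mixture of epithelium, stroma, vessels, muscle and whatever lymphoid tissue the segment held, and whether a segment included a Peyer's patch is not given in the sources used here. In such bulk RNA, fewer cells of a type and less RNA per cell cannot be told apart.

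A level is given as the log2 of the background-subtracted intensity minus the 75th percentile of its array, so 0 is the brightness of the 75th percentile and a difference of 1 is a 2-fold change. The 75th percentile lay between 837.3 and 1330 intensity units, between 72.7% and 88.1% of probes were well above background on an array, and no spot was saturated. Arrays of the same group correlated at 0.963 or higher and the highest correlation between any 2 arrays was 0.9905. Markers of ileal epithelium were well above background on all 24 arrays, with the bile acid binding protein FABP6 at 7.00 to 9.19, the ileal bile acid transporter SLC10A2 at 1.67 to 4.4 and villin VIL1 at 1.91 to 4.24. MS4A1, which encodes the B cell antigen CD20, was well above background on 9 of 24 arrays.

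CCL19 and CCL21 are both ligands of CCR7, a receptor of naive T cells, central memory T cells and mature dendritic cells. CCL21 is made by lymphatic endothelium, high endothelial venules and fibroblastic reticular cells, and CCL19 mainly by fibroblastic reticular cells and mature dendritic cells. CXCL13, made by follicular dendritic cells and follicular stroma, draws CXCR5-bearing B cells and follicular helper T cells into follicles, which in the ileum are collected in Peyer's patches and isolated lymphoid follicles. ACKR4 is an atypical receptor that takes up CCL19, CCL21 and CCL25 and degrades them without signaling. In the RefSeq annotation of the macaque genome, CCL21 and CCL19 are neighbours, with 0 annotated genes between them.

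CCL19 stood 7.09-fold and 5.26-fold above unirradiated ileum at day 4 and stepped down by day 7. In the unirradiated animals its level was -1.74, -1.98, -1.33 and -0.73. At day 4 it was 0.93, 1.39, 1.27 and 1.94 in the 6.7-Gy animals. In the 7.4-Gy animals of that day it was 0.61, 0.88, 1.15 and 1.17. All 8 day 4 animals lay above all unirradiated animals, and the doses overlapped each other. The mean was -1.44 ± 0.55 (SD, n = 4) unirradiated and 1.38 ± 0.42 (SD, n = 4) after 6.7-Gy TBI, a 7.09-fold difference (log2 2.83 ± 0.42 SE). For 7.4-Gy TBI the mean was 0.95 ± 0.26 (SD, n = 4), a 5.26-fold difference (log2 2.40 ± 0.42 SE). These differences are what CCL19 was selected on, so they are given as a description with no test.

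At day 7 CCL19 was lower again. Its level was -0.45, -0.01, 0.68 and -0.10 in the 6.7-Gy animals and -0.10, 0.05, -1.60 and -0.18 in the 7.4-Gy animals. The 6.7-Gy animals of day 7 all lay above the unirradiated animals (2.78-fold, log2 1.47 ± 0.42 SE), while the 7.4-Gy animals overlapped them through 1 animal at -1.60 (log2 0.99 ± 0.42 SE). At day 12 the level was -1.38 and -2.17 in the 6.7-Gy animals and -1.94 and 0.31 in the 7.4-Gy animals. The 6.7-Gy pair lay within or below the unirradiated range and the 7.4-Gy pair had 1 animal within that range and 1 above it. By their means the groups ran from 6.7-Gy TBI at day 4 (1.38) through 7.4-Gy TBI at day 4 (0.95), day 7 (0.03 and -0.46) and day 12 after 7.4-Gy TBI (-0.81) to the unirradiated group (-1.44) and day 12 after 6.7-Gy TBI (-1.78). Each neighbouring pair in this order overlapped.

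CCL21 was also higher at day 4, by a smaller factor, and its day 7 values were close to the unirradiated ones. Its level was 0.22, 0.40, 0.54 and 0.85 in the unirradiated animals. At day 4 it was 1.52, 2.24, 1.45 and 1.31 in the 6.7-Gy animals and 1.76, 2.23, 1.34 and 1.62 in the 7.4-Gy animals. The 8 day 4 animals lay above all other 16 animals, of which the highest stood at 1.18. The difference from the unirradiated mean of 0.50 ± 0.27 (SD, n = 4) was 2.18-fold after 6.7-Gy TBI (log2 1.12 ± 0.20 SE) and 2.35-fold after 7.4-Gy TBI (log2 1.23 ± 0.20 SE). As for CCL19, these values chose the gene and have no test here. Without the 6.7-Gy animal at 2.24, the difference at that dose was 0.92, under 2-fold.

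At day 7 CCL21 was 0.46, 0.81, 0.46 and 0.68 in the 6.7-Gy animals and 0.80, 1.18, 0.96 and 0.67 in the 7.4-Gy animals. At day 12 it was 0.98 and 0.91, and 1.0 and 1.11, at the lower and the higher dose. The log2 differences from unirradiated ileum were then 0.10 and 0.40 at day 7 and 0.44 and 0.55 at day 12 for the brighter probe. The dimmer CCL21 probe gave 0.25 and 0.64 at day 7 and 0.19 and 0.13 at day 12. By group means, both day 4 groups (1.74 and 1.63) stood first and did not overlap the next, day 12 after 7.4-Gy TBI (1.05). The remaining order was day 12 after 6.7-Gy TBI (0.94), day 7 after 7.4-Gy TBI (0.90), day 7 after 6.7-Gy TBI (0.60) and unirradiated (0.50), where all neighbours but the day 12 pairs overlapped.

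**Figure D1:**
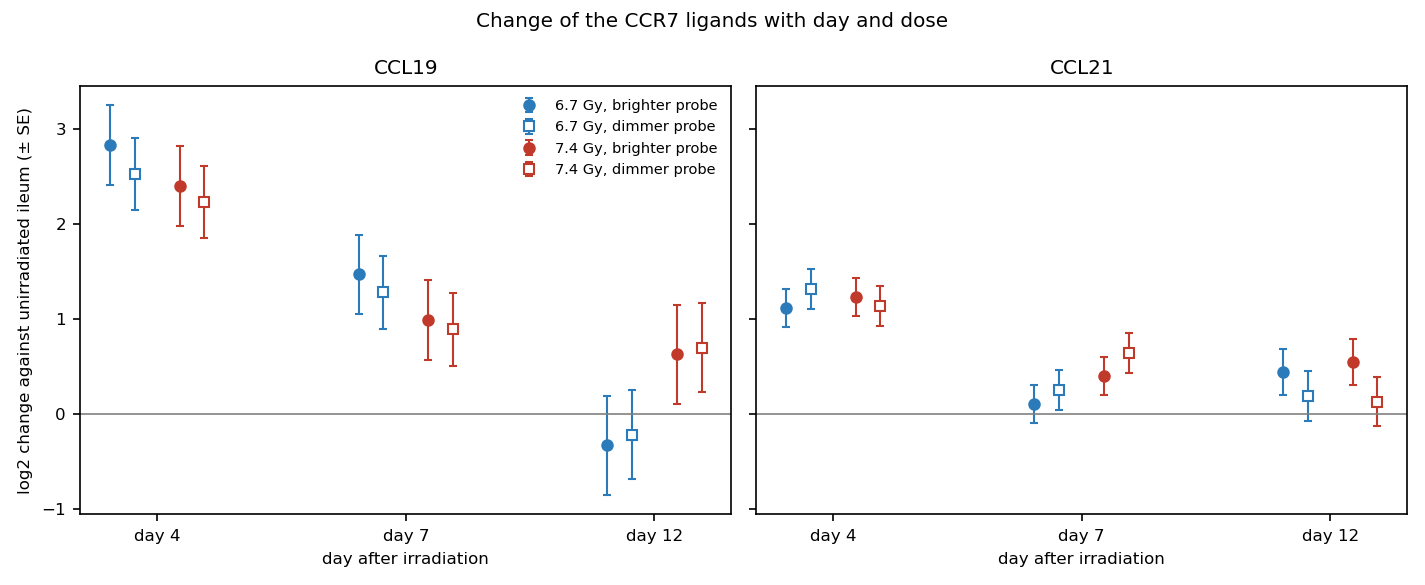
Log2 change of CCL19 (left) and CCL21 (right) against the 4 unirradiated animals at day 4, day 7 and day 12, for 6.7 Gy (blue) and 7.4 Gy (red), with both probes of each gene (filled, brighter; open, dimmer) and bars of 1 standard error of the fit. CCL19 starts at 2.83 and 2.40 at day 4 and steps down to 1.47 and 0.99 at day 7, whereas CCL21 starts at 1.12 and 1.23 and is at 0.10 and 0.40 at day 7.

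The CCL19 probes correlated at 0.99 over the 24 arrays and the dimmer one gave log2 changes of 2.53 and 2.23 at day 4. The CCL21 probes correlated at 0.89 and the dimmer one gave 1.32 and 1.14. By the dimmer CCL21 probe the day 4 animals did not all lie above the rest, since 7.4-Gy day 4 animal 3 stood at -0.05 and 2 of the 7.4-Gy day 7 animals at 0.47 and 0.02. Between day 4 and day 7, with doses averaged, the log2 difference was -1.38 for CCL19 and -0.93 for CCL21, and between day 4 and day 12 it was -2.46 and -0.68. Between day 7 and day 12 it was -1.08 for CCL19 (-1.64 to -0.52 when 1 array was left out). For CCL21 that last difference was 0.25 by the brighter probe and -0.28 by the dimmer one.

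Slides, positions on a slide and scan days were compared for the same differences. On the 4 slides that held an unirradiated array, each day 4 array exceeded the unirradiated array beside it, by 1.61 to 3.92 for CCL19 and by 0.91 to 1.38 for CCL21 (log2, 4 pairs). Within position 1, which held 2 arrays of the 6.7-Gy day 4 group and all 4 unirradiated arrays, the differences were 2.61 and 1.37. Among arrays scanned on the first day, CCL19 differed by 3.05 after 6.7-Gy TBI and 2.19 after 7.4-Gy TBI and CCL21 by 0.87 and 1.49, with 2 irradiated arrays each. With position as a covariate, the 7.4-Gy differences were 1.95 for CCL19 and 1.73 for CCL21. All unirradiated arrays lie at position 1 and all 7.4-Gy day 4 arrays at position 2. These adjusted values therefore rest on the 6.7-Gy day 4 arrays, which lie at both. Arrays of day 7 and day 12 lie only at positions 3 and 4 and those of day 4 and of unirradiated animals only at positions 1 and 2. For day 7 and day 12 against either of these, position and day cannot be told apart.

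The dose comparison did not choose the members and was tested for all 6. With limma and Benjamini-Hochberg adjustment over 36108 probes, 0 of 6 members were called between 7.4 Gy and 6.7 Gy at day 4, day 7 or day 12 (adjusted p under 0.05 and at least 2-fold). At an unadjusted p under 0.05 the counts were 0, 1 and 0, beside 5.54%, 4.02% and 6.25% of all probes. Among all tested probes 0% were called at day 4, 0% at day 7 and 0.00277% at day 12. CCL19 differed by -0.43 at day 4 (95% interval -1.31 to 0.45, adjusted p = 0.89) and by -0.48 at day 7 (-1.37 to 0.40, adjusted p = 0.99). CCL21 differed by 0.11 at day 4 (-0.31 to 0.52, adjusted p = 0.93) and by 0.30 at day 7 (-0.12 to 0.72, adjusted p = 0.99). At day 12 the intervals were -0.28 to 2.21 for CCL19 and -0.48 to 0.70 for CCL21. Intervals for CCL19 thus include differences of more than 2-fold on every day, and those for CCL21 do not. At day 12 the doses shared no slide and no scan day, so dose cannot be told apart from these there. Among the partners, ACKR4 differed by -0.31, 0.13 and 0.64 on the 3 days, CXCL13 by -0.13, -0.20 and 0.62 and the brighter CXCR5 probe by 0.19, -0.36 and -0.59 (adjusted p = 0.81 to 1). The widest of these intervals, for CXCL13 at day 12, ran from -1.78 to 3.02. The dimmer CXCR5 probe differed by -1.17 at day 7, with an interval that left out 0 (upper end -0.34) and an adjusted p of 0.99.

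**Figure D2:**
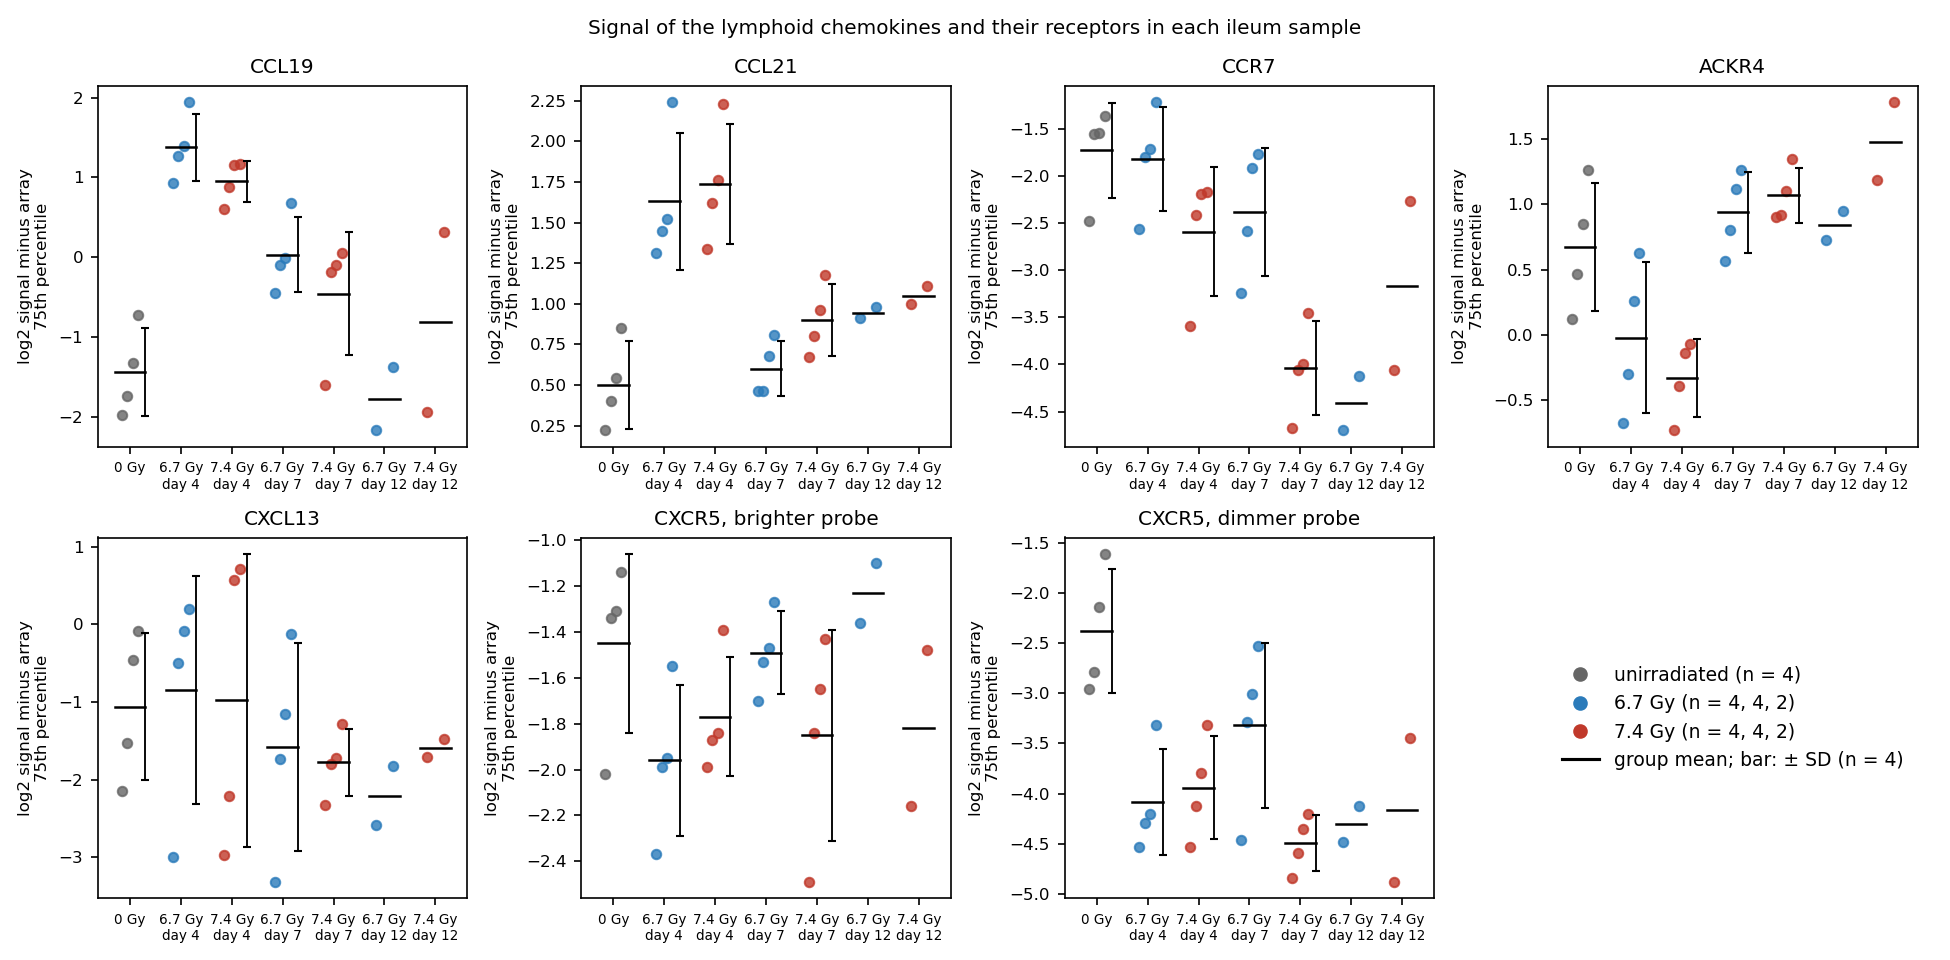
Level (log2 signal minus the 75th percentile of the array) of each gene in each of the 24 animals by group, with unirradiated animals in grey, 6.7 Gy in blue and 7.4 Gy in red; lines are group means and bars are SD where n = 4. CCL19 and CCL21 are high at day 4, CCR7 is low at day 7 after 7.4 Gy, ACKR4 is lowest at day 4, CXCL13 scatters within groups, and the probes of CXCR5 differ.

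CCR7, the signaling receptor of both ligands, was not called at day 4 and was lower at day 7 after 7.4-Gy TBI and at day 12 after 6.7-Gy TBI. In the unirradiated animals its level was -1.36, -2.48, -1.54 and -1.56. At day 4 it was -1.80, -2.56, -1.22 and -1.71 in the 6.7-Gy animals and -3.59, -2.17, -2.19 and -2.41 in the 7.4-Gy animals. Both groups overlapped the unirradiated animals, with log2 differences of -0.09 (95% interval -0.97 to 0.80, adjusted p = 0.91) and -0.86 (-1.74 to 0.03, adjusted p = 0.23).

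Its low values came later. At day 7 CCR7 was -3.24, -1.92, -1.77 and -2.58 after 6.7-Gy TBI, overlapping the unirradiated range. After 7.4-Gy TBI at day 7 it was -4.06, -4.0, -3.45 and -4.67, with all 4 animals below all unirradiated animals. This difference of -2.31 ± 0.42 (SE), 4.95-fold lower, passed the test (adjusted p = 0.0075). At day 12 CCR7 was -4.12 and -4.70 after 6.7-Gy TBI, again below every unirradiated animal (-2.68 ± 0.52 SE, adjusted p = 0.040), and -4.06 and -2.27 after 7.4-Gy TBI (-1.43 ± 0.52 SE, adjusted p = 0.41). The day 12 call was lost when any 1 of the 6 arrays involved was left out (adjusted p = 0.052 to 0.30), and the day 7 call was lost with slide as a block (-2.27, adjusted p = 0.077) and with the mean of both probes (-1.37, adjusted p = 0.15).

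Averaged over the doses, CCR7 was lower at day 7 than at day 4 by 1.0 ± 0.30 SE (95% interval of the log2 difference -1.63 to -0.38, adjusted p = 0.032), just at the 2-fold limit. Without any 1 of 10 of the 16 arrays of those days it was no longer called (-1.0 to -0.86, adjusted p = 0.043 to 0.069), nor with normexp background correction (-0.62, adjusted p = 0.060), quantile normalization (-0.99, adjusted p = 0.039), slide as a block (-1.01, adjusted p = 0.070) or the mean of both probes (-0.28, adjusted p = 0.56). It was lower at day 12 than at day 4 by 1.58 ± 0.37 SE (-2.35 to -0.82, adjusted p = 0.0076), a log2 difference of -1.58 that became -1.14 without 7.4-Gy animal 1 of day 12 (adjusted p = 0.079). That call was also lost with normexp (-1.0, adjusted p = 0.015, just under the 2-fold limit) and with the mean of both probes (-0.77, adjusted p = 0.14). Between the doses at day 7, all 4 animals of the higher dose lay below all 4 of the lower, a log2 difference of -1.66 (-2.55 to -0.78). By limma its unadjusted p was 8.2e-04 and its adjusted p 0.99, so it was not called. At day 4 the dose difference was -0.77 (-1.65 to 0.11, adjusted p = 0.88), and at day 12 it had the other sign, 1.25 (adjusted p = 0.79), with both 7.4-Gy animals above both 6.7-Gy animals. Leaving out 1 array moved this day 12 value between 0.36 and 2.14, and the doses shared no slide or scan day there. All this rests on the brighter CCR7 probe. The dimmer one, with a mean intensity of 18 units, was well above background on all 4 unirradiated arrays and on 10 of 20 irradiated arrays. It passed the filter only through the unirradiated group, so it is given no test and bears on none of these differences, and the means of both CCR7 probes above include it.

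ACKR4, the scavenger of the same ligands, had its lowest group means at day 4, where theirs were highest. Its level was 0.85, 0.12, 1.26 and 0.47 in the unirradiated animals. At day 4 it was -0.30, -0.67, 0.26 and 0.63 in the 6.7-Gy animals and -0.07, -0.14, -0.39 and -0.73 in the 7.4-Gy animals. The 6.7-Gy animals overlapped the unirradiated range (-0.69 ± 0.27 SE, adjusted p = 0.14), and the 7.4-Gy animals all lay below it. That difference of -1.01 ± 0.27 SE, 2.01-fold lower, passed the test (adjusted p = 0.030), and the second ACKR4 probe gave -0.89 (adjusted p = 0.063).

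The difference at 7.4 Gy lies at the edge of the 2-fold limit. With slide as a block it was -0.84 (adjusted p = 0.11), with scan day as a block -0.83 (adjusted p = 0.085), and with array position as a covariate -1.94 (adjusted p = 0.041). That difference was no longer called without unirradiated animal 1 or 3 or without day 4 animal 1, 3 or 4, when it lay between -1.09 and -0.81.

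At day 7 ACKR4 was 1.26, 0.80, 0.57 and 1.12 in the 6.7-Gy animals and 1.1, 1.35, 0.90 and 0.92 in the 7.4-Gy animals. At day 12 it was 0.95 and 0.73, and 1.19 and 1.78. None of these groups differed from the unirradiated one by the test, with log2 differences of 0.26, 0.39, 0.17 and 0.81 (adjusted p = 0.85, 0.54, 0.90 and 0.50). Set against day 4 with doses averaged, ACKR4 was higher at day 7 by 1.18 ± 0.19 SE (2.26-fold, adjusted p = 7.0e-04) and at day 12 by 1.34 ± 0.23 SE (2.53-fold, adjusted p = 0.0013). As stated for the slides, position and day cannot be told apart here. Both passed with the second probe too (1.09, adjusted p = 0.0018, and 1.36, adjusted p = 0.0017). The lowest day 7 animal (0.57) lay below the highest day 4 animal (0.63), and no day 12 animal did. On the slides with an unirradiated array, ACKR4 was higher in 1 of 4 day 4 pairs and in 5 of 6 day 7 pairs.

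CXCL13, the follicle chemokine, was called in no comparison, and its animals of 1 group lay far apart. In the unirradiated animals it was -2.15, -1.53, -0.46 and -0.09. At day 4 it was 0.20, -3.0, -0.50 and -0.08 in the 6.7-Gy animals and -2.97, 0.71, 0.57 and -2.21 in the 7.4-Gy animals. Within each day 4 group, the lowest and highest animals stood more than 3 log2 units apart, on both sides of the unirradiated range. The SD reached 1.47 and 1.89 in these groups, and the CXCL13 probes correlated at 0.99 over the arrays and 1.0 within groups.

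At day 7 CXCL13 was -3.32, -1.15, -0.12 and -1.73 in the 6.7-Gy animals and -1.28, -2.33, -1.80 and -1.72 in the 7.4-Gy animals. At day 12 it was -1.83 and -2.59, and -1.48 and -1.71. All groups overlapped the unirradiated one, with log2 differences of 0.21 and 0.08 at day 4, -0.52 and -0.72 at day 7 and -1.15 and -0.54 at day 12 (adjusted p = 0.73 to 0.97). The 95% intervals at day 4 ran from -1.48 to 1.91 and from -1.61 to 1.78, so they include a 2-fold change in either direction.

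CXCR5, the receptor of CXCL13, gave different answers by its probes. The brighter probe had a level of -2.02, -1.34, -1.31 and -1.14 in the unirradiated animals and between -2.49 and -1.10 in all others. Its log2 differences from unirradiated ileum lay between -0.51 and 0.22, and none was called (adjusted p = 0.20 to 0.98). The dimmer probe was well above background on all 24 arrays too, with a level of -2.79, -2.96, -2.14 and -1.61 in the unirradiated animals. It was -4.20, -4.53, -3.32 and -4.29 in the 6.7-Gy day 4 group and -3.32, -4.12, -3.79 and -4.53 after 7.4-Gy TBI. All 8 lay below all unirradiated animals, with log2 differences of -1.71 ± 0.40 SE (adjusted p = 0.029) and -1.56 ± 0.40 SE (adjusted p = 0.025).

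At day 7 the dimmer CXCR5 probe was -4.46, -2.53, -3.01 and -3.29 after 6.7-Gy TBI, overlapping the unirradiated range (-0.95, adjusted p = 0.44). After 7.4-Gy TBI it was -4.59, -4.84, -4.35 and -4.20, all below that range (-2.12 ± 0.40 SE, 4.34-fold lower, adjusted p = 0.0089). At day 12 it was -4.12 and -4.48, and -4.88 and -3.45, below all unirradiated animals in both groups but not past the test (-1.92 and -1.79, adjusted p = 0.15 and 0.20). With slide as a block the 3 called differences were -1.31, -1.40 and -1.72 (adjusted p = 0.12, 0.076 and 0.11), so none passed. On shared slides the dimmer probe was lower in all 4 day 4 pairs (log2 -2.51 to -0.54). Leaving out unirradiated animal 3 or 4 ended both day 4 calls (-1.63 to -1.31, adjusted p = 0.058 to 0.072). At 6.7 Gy the call also ended without day 4 animal 2 or 4 (-1.56 and -1.64), and at 7.4 Gy without animal 4 (-1.37). The day 7 call held in each such fit. With the mean of both probes, CXCR5 was called at day 4 after 6.7-Gy TBI (-1.11, adjusted p = 0.024) and at day 7 after 7.4-Gy TBI (-1.26, adjusted p = 0.015).

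**Figure D3:**
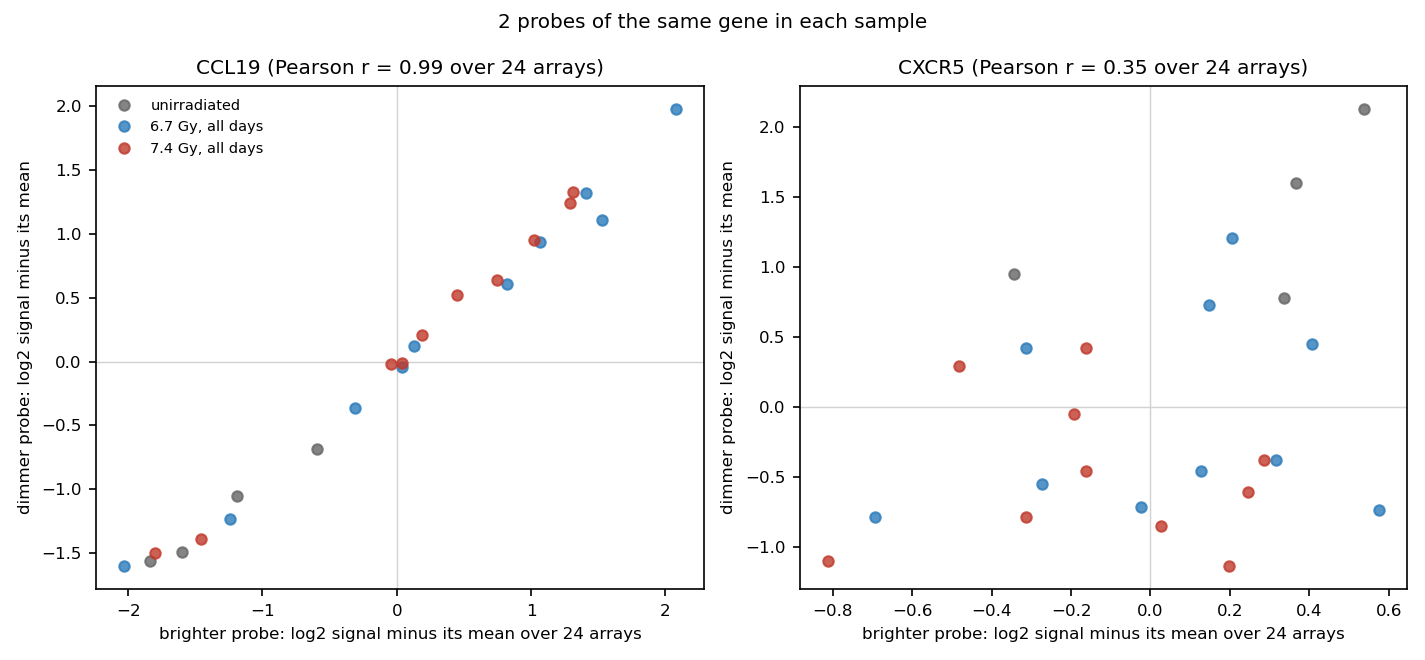
Level of the dimmer probe against the brighter probe of CCL19 (left) and of CXCR5 (right) in the 24 samples, each as log2 signal minus the probe's own mean over the arrays. The CCL19 probes rise together (r = 0.99) with unirradiated samples at the low end, whereas the CXCR5 probes correlate weakly (r = 0.35) and the dimmer one has all 4 unirradiated samples among its highest values, 1 irradiated sample lying between them.

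The CXCR5 probes also kept different company. Over the 24 arrays and 14241 genes with a tested probe, the genes most like the dimmer probe were CD79B, a subunit of the B cell receptor complex (r = 0.88), VPREB3, a gene of early and germinal centre B cells (r = 0.86), and GCSAM, a germinal centre B cell gene (r = 0.85). Next came CD1C, listed here as a dendritic cell marker (r = 0.82), which passed the filter only through the unirradiated group, and LOC714202 (r = 0.81). The genes most like the brighter probe, LOC722116, LOC720490, TCTEX1D4, SCAMP5 and STAC (r = 0.91 to 0.93), are not on the list of B cell markers. These correlations are descriptions across 24 arrays that share the group differences. The array files give both probes the same transcript, and which of them measures CXCR5 was not tested.

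For the ligands, the 5 genes with the most similar pattern differed, with none in common. CCL19 was most like TYMS, the thymidylate synthase (r = 0.89), APEX1, an abasic-site endonuclease of DNA repair (r = 0.88), VCAM1, an adhesion molecule of activated endothelium and lymphoid stroma (r = 0.87), HMGN3 (r = 0.87) and EPHB3, an ephrin receptor of intestinal crypts (r = 0.86). CCL21 was most like ACKR1, the chemokine-binding receptor of venules, listed under its older symbol DARC (r = 0.88), CD109 (r = 0.87), ARHGEF17 (r = 0.87), the TGF-beta co-receptor TGFBR3 (r = 0.86) and LYVE1, a hyaluronan receptor of lymphatic endothelium (r = 0.86). With group means removed, these correlations were 0.53 to 0.69 for the genes like CCL19 and 0.50 to 0.72 for those like CCL21.

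Whether members moved together from animal to animal within a group was tested for 21 pairs (15 pairs of members, and each member with the mean of 6 B cell genes), by permuting within groups (100000 resamples, two-sided, n = 24 arrays). MS4A1, well above background on only 9 of 24 arrays, is 1 of these 6 genes, and its weight in their mean was not tested. No pair passed Benjamini-Hochberg adjustment over the 21 pairs, and 4 had an unadjusted permutation p under 0.05. With slide removed as well, CCR7 with CXCL13 (r = 0.89, permutation, adjusted p = 0.0013) and CCL19 with the B cell genes (r = 0.70, adjusted p = 0.035) fell under 0.05. There the values were permuted within groups without fitting slide again, so these p can be too small and are not read as passing. CCL19 and CCL21 were close to uncorrelated (r = 0.07, permutation p = 0.68, adjusted p = 0.88; rho = 0.06, permutation p = 0.80). CCL19 with CCR7 gave r = 0.44 (permutation p = 0.18, adjusted p = 0.54; rho = 0.40, p = 0.16) and CCL21 with CCR7 gave r = -0.04 (permutation p = 0.87, adjusted p = 0.91; rho = 0.02, p = 0.95). With ACKR4, the ligands gave r = 0.25 (CCL19, permutation p = 0.32, adjusted p = 0.67; rho = 0.18, p = 0.50) and r = -0.19 (CCL21, permutation p = 0.54, adjusted p = 0.86; rho = -0.09, p = 0.73).

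The 4 pairs with the smallest p involved CXCL13 or the B cell genes. CXCL13 with the brighter CXCR5 probe gave r = 0.54 (permutation p = 0.0025, adjusted p = 0.053; rho = 0.53, p = 0.011, adjusted p = 0.092), 0.55 without the 2 arrays farthest from the CXCL13 median and 0.11 with slide removed. CCR7 with CXCL13 gave r = 0.58 (permutation p = 0.0057, adjusted p = 0.059; rho = 0.49, p = 0.027, adjusted p = 0.14), 0.60 without the farthest arrays and 0.89 with slide removed. CXCL13 with the mean of the B cell genes gave r = 0.48 (permutation p = 0.0085, adjusted p = 0.059; rho = 0.53, p = 0.012, adjusted p = 0.092), 0.51 without the farthest arrays and 0.25 with slide removed. CCL19 with the B cell genes gave r = 0.54 (permutation p = 0.021, adjusted p = 0.11; rho = 0.58, p = 0.013, adjusted p = 0.092), 0.54 without the farthest arrays and 0.70 with slide removed. For the CXCR5 probes, the B cell genes correlated at 0.29 with the brighter one (permutation p = 0.29, adjusted p = 0.67; rho = 0.16, p = 0.50) and at 0.60 with the dimmer one (permutation p = 0.0055, adjusted p = 0.059).

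**Figure D4:**
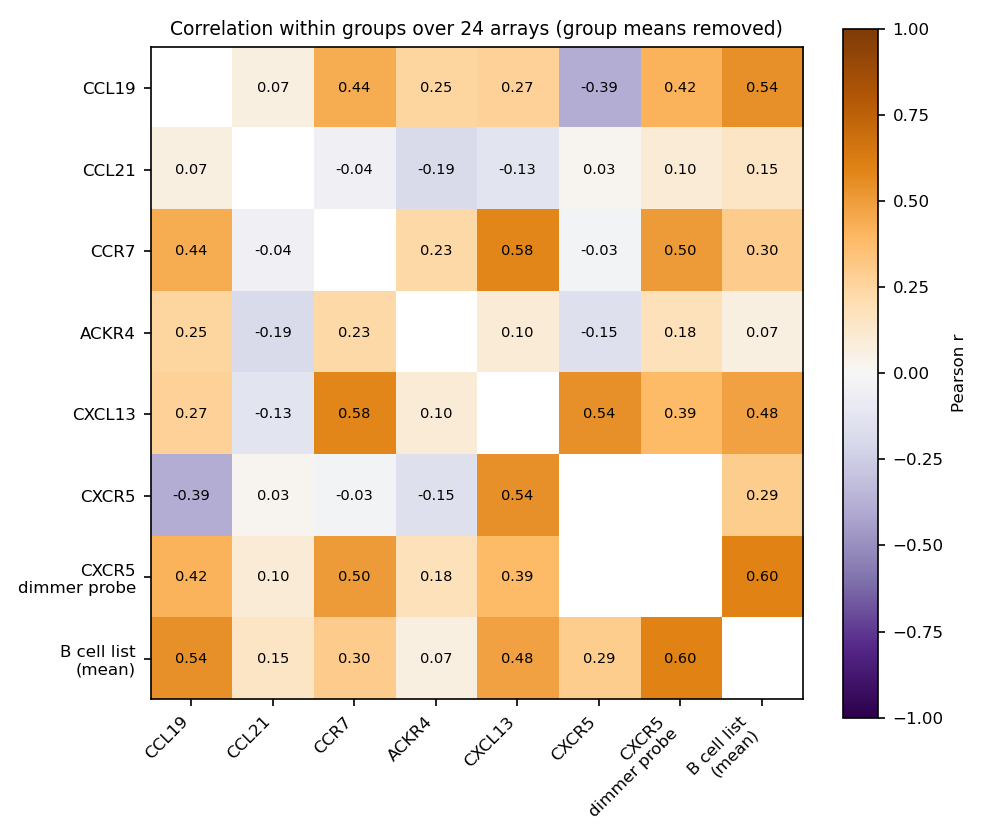
Pearson r between members, and with the mean of 6 B cell genes, over 24 arrays after group means were removed, with colour from -1 (purple) to 1 (orange). CCL21 stays near 0 with all other rows (-0.19 to 0.15), whereas CXCL13 gives 0.58 with CCR7 and 0.54 with the brighter CXCR5 probe.

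Counted over the 6 members by their brighter probes, 2 were called against unirradiated ileum at day 4 after 6.7-Gy TBI (CCL19 and CCL21 higher), where 0.978% of all tested probes were called. In the 7.4-Gy day 4 group 3 were called (CCL19 and CCL21 higher, ACKR4 lower), against 2.33% of probes. At day 7 none was called after 6.7-Gy TBI (0.235% of probes) and 1 after 7.4-Gy TBI (CCR7, 0.568%). At day 12, 1 was called after 6.7-Gy TBI (CCR7, 0.108%) and 0 after 7.4-Gy TBI (0.0443%). An unadjusted p under 0.05 was found for 1 member at day 7 after 6.7-Gy TBI, beside 9.36% of all probes. It was found for 3 members at day 12 after 7.4-Gy TBI, beside 8.13%. Since members were selected on these comparisons, nothing is read from these counts. Between days with doses averaged, the calls for day 7 against day 4 were 3 (CCL19 and CCR7 lower, ACKR4 higher, 1.06% of probes). They were the same 3 for day 12 against day 4 (2.75%) and 0 for day 12 against day 7 (0.114%). In that last comparison 1 member had an unadjusted p under 0.05, beside 14.4% of all probes. CCL19 was chosen on these days, so its place in these counts is a description only.

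Among other chemokines and chemokine receptors, 16 of 22 listed genes had a tested probe, and CCR9, ACKR1 and GPR183 were called. CCR9, the receptor for CCL25 that directs lymphocytes to the small intestine, was lower in all 6 irradiated groups, with log2 changes of -1.67 and -1.68 at day 4, -2.0 and -2.40 at day 7 and -1.98 and -2.07 at day 12 (adjusted p from 9.1e-05 to 0.029). With slide as a block its day 12 differences were -1.93 and -1.78 and not called (adjusted p = 0.067 and 0.35), and with scan day as a block the 7.4-Gy one was -1.76 (adjusted p = 0.40). ACKR1 rose at day 4, by 1.22 after 6.7-Gy TBI (adjusted p = 0.011) and 1.59 after 7.4-Gy TBI (adjusted p = 8.3e-04), and was lower at day 7 than at day 4 with doses averaged (log2 -1.18, adjusted p = 3.0e-04). GPR183, an oxysterol receptor that positions B cells and dendritic cells, was lower at day 7 (-1.15 and -1.73, adjusted p = 0.029 and 0.0011), the 6.7-Gy call being lost with slide as a block (-1.15, adjusted p = 0.061). The list's median log2 change was -0.60 and -0.37 at day 4, -0.35 and -0.46 at day 7 and -0.34 and -0.51 at day 12, beside medians of all genes between -0.07 and 0.05.

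The lymphotoxin and non-canonical NF-kB genes, which drive expression of these chemokines in lymphoid stroma, had 16 of 18 members tested. By limma 0 of the 16 were called against unirradiated ileum in any group. At an unadjusted p under 0.05 there were 4 and 2 at day 4, beside 22.9% and 23.6% of all probes. At day 7 there were 3 and 4 (9.36% and 13.4% of probes), and at day 12 there were 4 and 4 (8.98% and 8.13%). Their median log2 change lay between -0.18 and 0.01. Of the genes for lymphocyte entry and vessel adhesion, 6 of 13 were tested. VCAM1 rose at day 4 (1.05 and 1.01, adjusted p = 0.040 and 0.027), and ITGA4, the integrin chain that binds VCAM1 and MAdCAM-1, was lower at day 7 (-1.25 and -1.48, adjusted p = 0.011 and 0.0019) and at day 12 after 6.7-Gy TBI (-1.41, adjusted p = 0.040). With slide as a block both VCAM1 calls (1.12 and 1.0, adjusted p = 0.074 and 0.067) and the day 12 call of ITGA4 (-1.46, adjusted p = 0.090) were lost, and with scan day as a block both VCAM1 calls (1.06 and 1.02, adjusted p = 0.070 and 0.051).

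**Figure D5:**
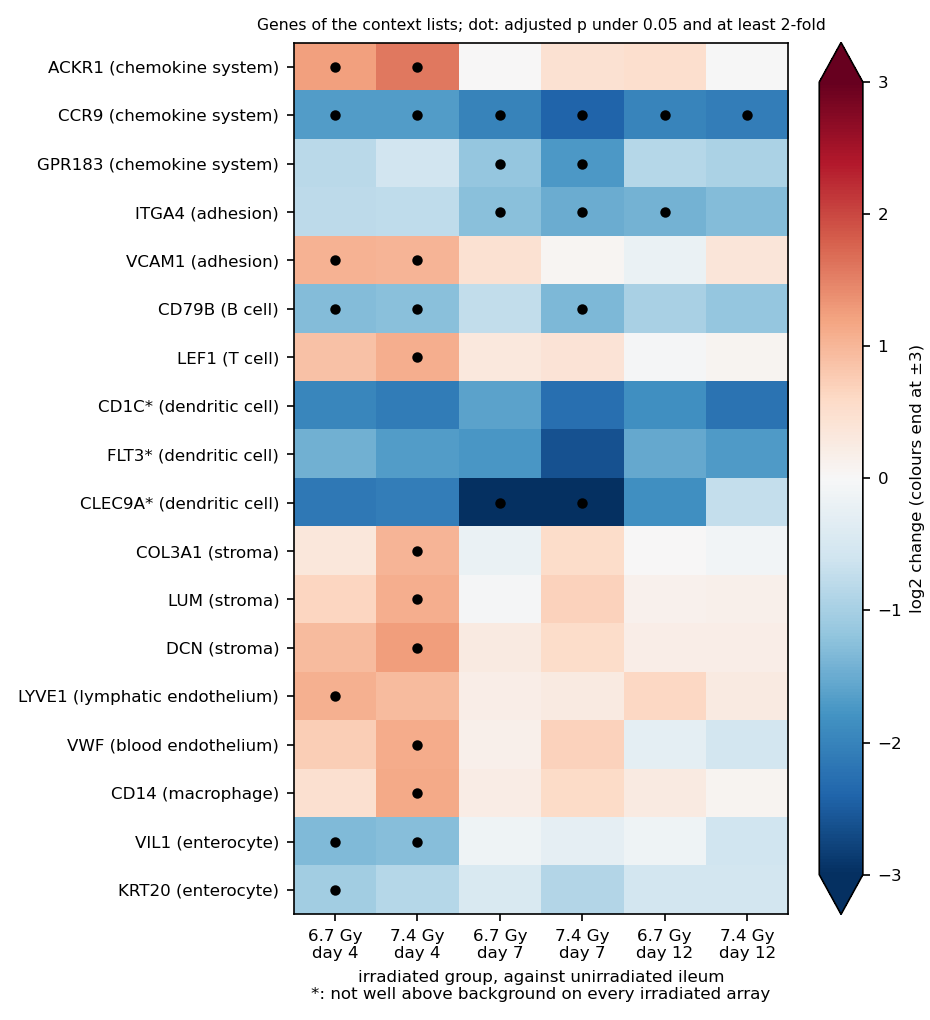
Log2 change against unirradiated ileum (colour, blue lower, red higher, ending at ±3) of genes from the context lists that passed the thresholds in at least 1 of the 6 irradiated groups; a black dot marks a call, and CD1C and FLT3, which have no test, carry no dot. Calls for ACKR1, VCAM1 and LYVE1 lie at day 4, CCR9 is lower in all 6 groups, and for the genes with an asterisk the irradiated signal was not well above background on every array.

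With array position as a covariate, 5 of the 18 day 4 calls of list genes held, and at 7.4 Gy only that of CCR9 (-2.16, adjusted p = 0.025) did. Markers of the cells that make or answer these chemokines also differed between groups, and their part in the changes was not tested. Of 8 lymphatic endothelium markers 4 were tested, and LYVE1 was called at day 4 after 6.7-Gy TBI (1.06, adjusted p = 0.0022), while after 7.4-Gy TBI it was 0.94 (adjusted p = 0.0034, under the 2-fold limit). The summed linear level of these 4, in units of the array's 75th percentile, was 1.72 to 2.56 in unirradiated animals, 3.61 to 5.36 and 3.45 to 4.43 at day 4, and 2.04 to 3.46 later. LYVE1 makes up most of this sum, and the median log2 change of the 4 markers at day 4 was 0.21 and 0.50, with 1 of 4 lower after 6.7-Gy TBI. The sum did not overlap the unirradiated range at day 4 or at day 12 after 6.7-Gy TBI (2.87 to 3.46), and PROX1, the defining transcription factor, was well above background on all 24 arrays. Of 12 fibroblastic reticular and stromal markers 10 were tested, with 0 called at day 4 after 6.7-Gy TBI (0.978% of all probes) and 3 after 7.4-Gy TBI (2.33%). Their median log2 change at day 4 was 0.40 and 0.81. The called ones were the matrix genes COL3A1 (1.01, adjusted p = 0.037; 1.07, adjusted p = 0.060 with slide as a block), LUM (1.09, adjusted p = 0.014) and DCN (1.26, adjusted p = 0.0097). The stromal sum was 43.1 to 81.7 unirradiated, 69.9 to 119 and 96.3 to 166 at day 4, 49.1 to 105 at day 7 and 49.3 to 74.7 at day 12.

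Among leukocyte markers, CD79B and CLEC9A were lower and LEF1, unlike most T cell markers, higher in some groups. Of 14 B cell markers 6 were tested, and CD79B was lower at day 4 at both doses and at day 7 after 7.4-Gy TBI (-1.29, -1.25 and -1.34, adjusted p = 0.025, 0.016 and 0.026). The 6.7-Gy day 4 call and the day 7 call of CD79B were lost with slide as a block (-1.09 and -1.14, adjusted p = 0.096 and 0.15) and with scan day as a block (-1.26 and -1.31, adjusted p = 0.055 and 0.076). The B cell sum was 1.53 to 3.99 unirradiated, 0.992 to 1.91 at day 4, 1.03 to 2.08 at day 7 and 1.79 to 2.30 at day 12, and MS4A1 was near background as given above. Of 14 T cell markers 11 were tested. LEF1, a transcription factor that crypt cells also use, was higher in the 7.4-Gy day 4 group (1.08, adjusted p = 0.018). Of the 11, 10 were lower in that group, with a median log2 change of -0.28 beside -0.05 for all genes. At day 7, 10 were lower at each dose, with medians of -0.77 and -0.86 beside 0 and -0.02. The T cell sum was 13.1 to 18.2 unirradiated, 8.70 to 17.0 at day 4, 7.48 to 9.58 at day 7 and 9.04 to 11.8 at day 12, and no animal of the later days reached the unirradiated range.

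Of 14 dendritic cell markers 9 were tested. CLEC9A, a marker of cross-presenting dendritic cells, was lower at day 7 (-4.84 and -4.57, adjusted p = 0.0053 and 0.0029), with 1 of 4 arrays of each group well above background. With normexp background correction these differences were -1.65 and -1.58 and still called. FLT3, the growth factor receptor of dendritic cell precursors, and CD1C passed the filter only through the unirradiated group, where they are high, so their values are a description with no test. FLT3 was well above background on 4 of 4 unirradiated arrays, 2 of 4 in each day 4 group and 1 of 4 in each day 7 group, and its differences of -1.45, -1.67, -1.75 and -2.61 became -0.40, -0.52, -0.39 and -0.48 with normexp. CD1C was well above background on the 4 unirradiated arrays and on no irradiated array, at least 1.87-fold and 1.94-fold lower at day 4. The dendritic cell sum of each irradiated group overlapped the unirradiated range (3.24 to 5.23 unirradiated, 2.55 to 4.45 irradiated). LAMP3, a marker of the mature CCR7-bearing dendritic cell, had no tested probe.

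Among the remaining lists, follicular dendritic cell markers were tested for 6 of 8, and VCAM1 was the 1 called. Blood endothelium had 6 of 8 tested with VWF higher in the 7.4-Gy day 4 group (1.12, adjusted p = 0.041), and macrophages 7 of 10 with CD14 higher in the same group (1.14, adjusted p = 0.011). Enterocyte markers were tested for 5 of 10. VIL1 was lower at day 4 (-1.32 and -1.27, adjusted p = 0.0011 and 8.5e-04) and KRT20, a keratin of mature enterocytes, at day 4 after 6.7-Gy TBI (-1.05, adjusted p = 0.015). The enterocyte sum was 485 to 576 unirradiated and 161 to 432 at day 4, without overlap, and 387 to 675 later. This sum weights bright genes most, such as FABP6 (log2 level 7.00 to 9.19). By marker, 1 of 5 was higher at day 4 at each dose, with median log2 changes of -0.67 and -0.47. Smooth muscle had 4 of 8 tested and 0 called in each of the 6 groups, with the sum between 101 and 559 over all animals, the lowest being unirradiated.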

How the data were processed

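Ileal RNA of 24 macaques was hybridised to one-colour Agilent arrays. Per the labels and the study's methods, the authors read background-subtracted intensity with Feature Extraction 11.0.1.1 and, in GeneSpring GX 11.0, took log2 values, scaled each array to its 75th percentile and tested with a t-test. The deposited log2 table was in addition centred on each probe's median over the arrays. Here, log2 of the deposited intensity minus the 75th percentile of the array was fitted in limma 3.58.1 (R 4.3.3), with 7 group means over all 24 arrays and Benjamini-Hochberg adjustment over 36108 probes. A call needed an adjusted p under 0.05 and a change of at least 2-fold. Arrays have no read depth, so precision depends on how many were run. Replicates were separate animals, so p-values measure the spread between these animals.

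The members and gene lists were chosen with earlier results of these data known. CCL19 and CCL21 were selected on the comparisons with unirradiated ileum, so no p is given for them there or between days. Named genes were all members with both probes (the brighter one represents the gene), list genes called against unirradiated ileum (at most 6 per list) and the 5 genes most like CCL19 and CCL21. The genes like CXCR5 were named after their values were seen. ACKR4 and ACKR1 were matched through their older symbols. Within-group correlations used permutation within groups (100000 resamples). Alternatives were normexp correction (on median signals, since the files hold no mean signals; offset 50), quantile scaling, the deposited normalized values, no filter on dim probes, limma trend and robust options, slide, position, replicate or scan day in the fit (scan day and the dimmer CXCR5 probe in correlations were added after seeing the data), fits of the compared groups alone, the mean of probes, the methods' t-test and leaving out each array. The fit was tested on simulated data. No per-sample column of the series file was left unmapped. No sequences are shown, and 1 of the list genes is not reported here.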

Additional observations from a re-analysis of the deposited data

Results flagged for a closer look

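Of 35 combinations of a probe and a group of 4 animals, 2 held an animal far from the others of its group, where chance gives about 1 in 20. The combinations took the brighter probe of each member and the dimmer CXCR5 probe, so the same animals recur in them. CCL19 in animal 3 of day 7 after 7.4-Gy TBI was -1.60, with the other 3 at -0.18 to 0.05 (gap over range 0.863). CCR7 in animal 1 of day 4 after 7.4-Gy TBI was -3.59, with the other 3 at -2.41 to -2.17 (0.831).

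The receptors CCR7 and ACKR4 differed between days, with doses averaged and the difference itself tested by limma. CCR7 changed by -1.0 from day 4 to day 7 (adjusted p = 0.032) and by -1.58 from day 4 to day 12 (adjusted p = 0.0076). The first of these CCR7 calls was lost with slide as a block (-1.01, adjusted p = 0.070), normexp, quantile normalization and in 10 of 16 fits leaving out an array, and the second with normexp and without 7.4-Gy animal 1 of day 12 (-1.14, adjusted p = 0.079). ACKR4 changed by 1.18 (adjusted p = 7.0e-04) and by 1.34 (adjusted p = 0.0013). Position on the slide and day cannot be told apart in these comparisons.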

How the results depend on the processing

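The number of members called moved with the setting as follows. At day 12 after 6.7-Gy TBI (1 called, CCR7) it was 0 with the mean of probes, the methods' t-test with Benjamini-Hochberg, no filter, normexp, only the compared groups, the replicate block, slide as a block, and in each leave-one-out fit. At day 4 after 6.7-Gy TBI (2 called) it was 0 with the adjusted t-test, 1 with only the compared groups, 1 to 2 leaving out arrays and 3 with the mean of probes, which adds CXCR5. In the 7.4-Gy day 4 group (3 called) it was 1 with the adjusted t-test, 2 without ACKR4 (slide, scan day, quantile, compared groups, mean of probes), 2 without CCL19 (position) and 2 to 3 leaving out arrays, and at day 7 after 7.4-Gy TBI (1 called) 0 with that test and with slide as a block, and 1 with the mean of probes, CXCR5 in place of CCR7. The unadjusted t-test called 1 instead of 0 at day 7 after 6.7-Gy TBI (CCL19) and between doses at day 7 (CCR7). Of the 3 calls between days, CCR7 was lost (2 called) for day 7 against day 4 with normexp, quantile scaling, slide as a block and the mean of probes, for day 12 against day 4 with normexp and the mean of probes, and for both in some fits leaving out arrays (2 to 3). Correlations past adjustment numbered 2 with slide removed, 2 with normexp (CXCL13 with CCR7 and with CXCR5) and 3 with quantile scaling (these and CCL19 with the B cell genes), against 0. The 2 with slide removed rest on p-values that can be too small, as stated for these correlations. Replicate numbers did not pair the animals (62 pairs, r -0.264 to 0.365, median 0.03), and the replicate block changed no other count of members called.

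Directions that turned had small differences in the fit used above, while the turned values reached -1.03. With normexp, CXCR5 at day 7 after 6.7-Gy TBI was 0. With slide as a block, the dose difference was -0.06 for CCL21 at day 4 and 0.23 for CXCL13 at day 7. With position, CXCL13 was -0.34 and -1.03 at day 4 and CXCR5 -0.17 from day 7 to day 12. With the replicate block, CXCL13 was 0.21 from day 7 to day 12. With the mean of probes, CXCR5 was -0.85 at day 12 after 6.7-Gy TBI and -0.09 from day 7 to day 12, and CCL21 was -0.03 between doses at day 4 and -0.02 from day 7 to day 12. Correlations that turned were CCL21 with CCR7 (0.02 by rank, 0.11 without 2 arrays, 0.23 by the mean of probes), CCL19 with CCL21 (-0.40, slide removed), CXCR5 with the B cell genes (-0.21, slide removed) and CCL21 with ACKR4 (0.04 without 2 arrays). The cause was not tested. For CCR7 the mean of probes includes a dim probe that passed the filter only through the unirradiated group.

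Leaving out 1 array spanned 0 for CCR7 (-0.33 to 0.16) and CXCL13 (-0.15 to 0.93) at day 4 after 6.7-Gy TBI, CXCL13 in the 7.4-Gy day 4 group (-0.48 to 0.75), CXCL13 (-1.01 to 0.05) and CXCR5 (-0.23 to 0.06) at day 7 after 6.7-Gy TBI, CCL19 (-0.73 to 0.06) and ACKR4 (-0.01 to 0.36) at day 12 after 6.7-Gy TBI and CCL19 at day 12 after 7.4-Gy TBI (-0.49 to 1.76). It did so between doses for CCL21 (-0.06 to 0.31) and CXCL13 (-0.85 to 0.53) at day 4, CXCL13 at day 7 (-0.78 to 0.29) and CCL19 at day 12 (-0.16 to 2.09), and from day 7 to day 12 for CXCL13 (-0.51 to 0.02) and CXCR5 (-0.02 to 0.32). Of 31 calls among the list genes, without FLT3 and CD1C, 22 held with slide as a block, 25 with scan day as a block, 27 with normexp, 11 with only the compared groups, 1 with the adjusted t-test and, of 18 at day 4, 5 with position, and none turned.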
